A study of Mus musculus with 3 samples.

Results

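Genes of glycolysis and of the response to low oxygen were followed in macrophages sorted from the mouse colon. The group was a list of 35 named genes, each taken from the row whose gene name equals it, of 23997 rows in all. Of these, 34 had such a row, and all 34 reached a mean of 1 FPKM over the 3 libraries and 1 FPKM in every library, so none was left out for a low value. FPKM counts fragments relative to transcript length and library depth, so that levels of different genes can be compared per length. Pdk1 was the lowest member, at a mean of 1.19 FPKM. Eno1 was the exception to the rule: its row is joined with that of Eno1b, a near-identical copy, and is given apart from the members.

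The sort took CD64-positive cells without Siglec-F and with low Ly6C from untreated male C57BL/6 mice whose age is given as 9 weeks in one label and 8.9 weeks in another. All mice carried Lyz2-Cre, which drives Cre recombinase in myeloid cells and not in macrophages alone. WT mice carried Lyz2-Cre only, Tle3cKO mice had floxed Tle3 (Tle3f/f) as well, and Tle4cKO mice had floxed Tle4 (Tle4f/f). Tle3 and Tle4 encode Groucho-family corepressors. Each pool held cells of 4 mice (WT), 3 mice (Tle3cKO) or 4 mice (Tle4cKO), so each genotype was 1 library, no replicate spread could be measured, and no value below has a standard error or a p-value.

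Glycolysis splits glucose into pyruvate in the cytosol, with a small yield of ATP that needs no oxygen. When pyruvate is turned into lactate, the cofactor NAD+ is restored and the pathway can run on. The transcription factor HIF joins an oxygen-labile alpha subunit to a stable beta subunit. With enough oxygen, EGLN prolyl hydroxylases mark the alpha subunit for destruction through the VHL ligase, and with little oxygen it persists and raises glucose transporters, glycolytic enzymes, angiogenic factors and mitophagy receptors. Macrophages also raise glycolysis and HIF1A on inflammatory activation, and the colon wall is a tissue of low oxygen. HIF acts largely through the stability of its alpha protein, which RNA levels do not show.

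HIF binds a short core, ACGTG or GCGTG. The bases before the start sites of 4 members are shown because they hold this core and belong to the isoenzyme pair that differs most in level, Ldha and Ldhb, to Pgk1, a step of the main pathway, and to Bnip3, a hypoxia-induced gene. The sequences are from RefSeq on GRCm38.p6, the same build as mm10, read 5′ to 3′ on the gene's strand. Each ends before the first base of any annotated exon. Capitals mark the core on either strand, so CACGT and CACGC are the core of the other strand and CACGTG holds it on both.
Ldha: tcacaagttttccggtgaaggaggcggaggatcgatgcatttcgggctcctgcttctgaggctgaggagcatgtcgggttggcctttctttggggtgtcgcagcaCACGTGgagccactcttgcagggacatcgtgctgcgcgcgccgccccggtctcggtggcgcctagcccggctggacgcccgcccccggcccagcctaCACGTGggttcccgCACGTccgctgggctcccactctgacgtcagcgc
Ldhb: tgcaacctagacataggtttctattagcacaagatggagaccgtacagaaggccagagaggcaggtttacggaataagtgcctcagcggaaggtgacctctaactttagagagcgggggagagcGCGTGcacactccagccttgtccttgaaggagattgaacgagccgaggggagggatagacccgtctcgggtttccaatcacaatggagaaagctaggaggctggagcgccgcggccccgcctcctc
Pgk1: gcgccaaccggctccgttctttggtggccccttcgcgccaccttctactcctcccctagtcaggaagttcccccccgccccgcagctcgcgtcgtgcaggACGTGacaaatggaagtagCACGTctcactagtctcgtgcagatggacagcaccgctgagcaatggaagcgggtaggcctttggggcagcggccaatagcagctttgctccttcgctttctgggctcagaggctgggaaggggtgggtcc
Bnip3: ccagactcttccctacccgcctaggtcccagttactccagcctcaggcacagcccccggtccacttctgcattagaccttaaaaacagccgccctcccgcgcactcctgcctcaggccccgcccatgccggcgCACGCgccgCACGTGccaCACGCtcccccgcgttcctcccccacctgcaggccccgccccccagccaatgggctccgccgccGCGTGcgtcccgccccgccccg
The Ldha window (chr7:46845554-46845803, plus strand) held 3 separate core matches, and the Ldhb window (chr6:142507958-142508207, minus strand) held 1. Where a gene had several windows, the one with the most matches was shown. The other Ldha window (chr7:46846832-46847081, plus strand) held 1, as many as that of Ldhb. The Pgk1 window (chrX:106186850-106187099, plus strand) held 2 and the Bnip3 window (chr7:138909520-138909756, minus strand) 4. Of the 35 listed genes, 32 had RefSeq promoter entries, Ero1l under its current symbol Ero1a, with 45 windows of 250 bases before a start. Of these, 37 (82.2%) held at least 1 core, against 38.6% of all 32851 windows. The list, here with Eno1, was chosen for glycolysis and the hypoxia response, so the higher share is no separate result. Some genes gave several windows, which can overlap. A match is a run of letters and not a measured binding site.

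Before the members, the labels were checked. Tle3 was at 38.6 FPKM for WT, 70.7 for the library labelled Tle3cKO and 46.9 for the Tle4cKO library, so it was not lower in the library labelled for its loss. Tle4 was at 8.5, 11 and 5.8 FPKM in the same order. Gene-level values do not show the deleted exons apart. Of the macrophage markers, the complement gene C1qa was at 1093 to 1243 FPKM, Cd68 at 483 to 501 and Fcgr1, which encodes the CD64 of the sort, at 33.3 to 39.2, while Mertk was at 4.46 to 7.65 and Cx3cr1 at 7.64 to 11.4. Lyz2, the gene whose promoter drives the Cre, was listed at only 10.4 to 11.7 FPKM. Total FPKM was 569961 to 610714, and comparisons used the 11114 genes at a mean of at least 1 FPKM. Judged by the steps among very low values, relative depth was 0.968 in the library labelled Tle3cKO and 1.21 for Tle4cKO, with WT set to 1, but the number of fragments is unknown.

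The glycolytic programme was abundant and nearly level across the genotypes. The 8 main enzymes Gpi1, Aldoa, Tpi1, Gapdh, Pgk1, Pgam1, Pkm and Ldha summed to 2280 FPKM for WT, 2174 for the library labelled Tle3cKO and 2331 for the Tle4cKO library. This was 0.373%, 0.381% and 0.39% of the total. Of the 34 members, 24 differed by less than 1.2-fold in FPKM between their highest and lowest library. Only Slc2a3 and Ldhb, a neuronal-type glucose transporter and the heart-type lactate dehydrogenase subunit, differed by 1.5-fold or more. Neither count was made for all genes, so neither shows the list to be more level than other genes. Over all 34 members the median size of the log2 ratio, given below, was slightly above that of all genes in each comparison. In macrophage samples taken as bulk RNA, fewer expressing cells and less RNA per cell cannot be told apart, which holds for every difference below.

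**Figure D1:**
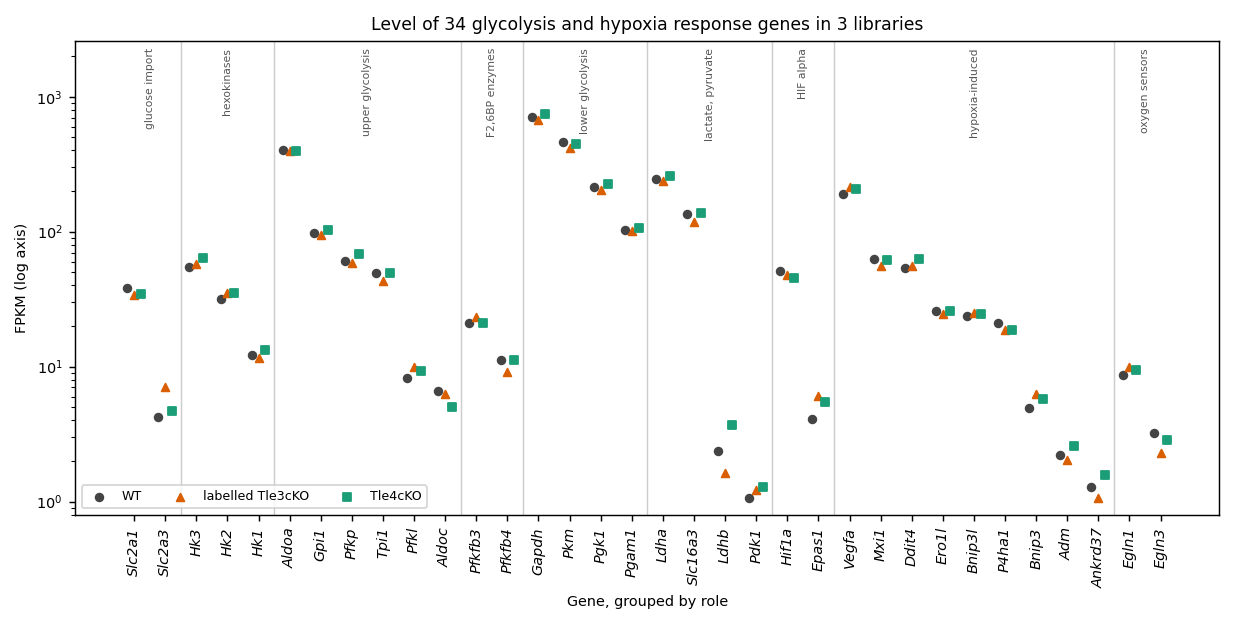
FPKM on a log axis for the 34 members in the 3 libraries (1 point per library), grouped by role and ordered by mean level. The 3 points of most genes lie close together, while those of Slc2a3 (4.23 to 7.09 FPKM) and Ldhb (1.64 to 3.72 FPKM) are spread.

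Glucose enters cells through facilitative transporters. Slc2a1 (GLUT1, ENSMUSG00000028645.11, chromosome 4, 119108711 to 119137983), the basal transporter of most cells and a HIF target, was at 38.5 FPKM for WT, 34.2 for the library labelled Tle3cKO and 34.4 for the Tle4cKO library. WT was highest and the other libraries were within 0.01 of each other on the log2 scale. Slc2a3 (GLUT3, ENSMUSG00000003153.10, chromosome 6, 122727809 to 122801640), a transporter with high affinity for glucose, was at 4.23, 7.09 and 4.66 FPKM. The library labelled Tle3cKO was highest and stood apart from the other libraries. Its log2 ratio to WT was 0.63, on the log2(FPKM + 1) scale used throughout, which understates differences of low genes. Slc2a3 thus made up 9.88% of the summed FPKM of the 2 transporters for WT, 17.2% for the library labelled Tle3cKO and 11.9% for the Tle4cKO library. This share does not depend on how libraries are scaled.

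Hexokinases trap glucose in the cell as glucose 6-phosphate. Hk3, a form typical of myeloid cells, was the highest, at 54.8, 57.2 and 64.2 FPKM for WT, the library labelled Tle3cKO and Tle4cKO. Hk2, the inducible form that HIF raises, was at 31.4, 35 and 35.1 FPKM in the same order. Hk1, the constitutive form of most tissues, was at 12.3, 11.5 and 13.3 FPKM. All 3 were above WT in Tle4cKO, with log2 ratios to WT of 0.11 to 0.22. The order Hk3, Hk2, Hk1 was the same in every library, and Hk3 held 55.2% to 57% of the summed FPKM of the hexokinases.

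Upper glycolysis turns glucose 6-phosphate into triose phosphates. Aldoa, the main aldolase, which splits the 6-carbon sugar, was at 400.5, 398 and 397 FPKM for WT, the library labelled Tle3cKO and Tle4cKO, the closest agreement of all members. Gpi1, the isomerase that follows hexokinase, was at 97.3, 95.1 and 104 FPKM. Pfkp, the platelet-type phosphofructokinase of the committed step, was at 60.7, 59 and 67.9 FPKM. Pfkp carried most of this step: it held 86.9% of the summed phosphofructokinase FPKM in WT, and Pfkl, the liver type, at 8.29, 9.9 and 9.29 FPKM, held 11.9%. Tpi1, which interconverts the triose phosphates, was at 49, 43.3 and 49 FPKM, lowest in the library labelled Tle3cKO. Aldoc, the aldolase best known from brain and glia, was at 6.55, 6.22 and 4.99 FPKM. It was lowest in Tle4cKO, with a log2 ratio to WT of -0.33.

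The level of fructose 2,6-bisphosphate, the strongest activator of phosphofructokinase, is set by the PFKFB enzymes. Pfkfb3, the form with the strongest bias to making the activator, was at 20.9 FPKM for WT, 23.4 for the library labelled Tle3cKO and 21.2 for the Tle4cKO library. Pfkfb4, another hypoxia-inducible form, was at 11.1, 9.19 and 11.2 FPKM. The members moved in opposite directions in the library labelled Tle3cKO, with log2 ratios to WT of 0.15 and -0.25. Pfkfb3 therefore held 61.7% of the summed FPKM of the 4 PFKFB genes there, against 56.8% in WT and 56.6% in Tle4cKO.

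Lower glycolysis yields ATP and pyruvate, and its enzymes were among the most abundant transcripts. Gapdh (ENSMUSG00000057666.18, chromosome 6, 125161715 to 125166467), which makes NADH, was at 707 FPKM for WT, 677 for the library labelled Tle3cKO and 746 for the Tle4cKO library, and ranked 124 of all genes in WT. Pkm, the pyruvate kinase whose M1 and M2 forms a gene-level value does not separate, was at 462, 418 and 446 FPKM. Pgk1 (ENSMUSG00000062070.12, chromosome X, 106187100 to 106203699), the first ATP-yielding step, was at 213, 205 and 224 FPKM. Pgam1, the mutase before enolase, was at 103, 102 and 107 FPKM. All 4 genes were lowest in the library labelled Tle3cKO, by small amounts: the log2 ratios to WT were -0.15 to -0.022. That direction rests on the scaling, because with totals made equal 3 of the 4 were above WT, with a median of 0.039. The joined row of Eno1, the enolase of this step, and Eno1b was at 166, 160.2 and 171 FPKM, and the further row of Eno1b at 2.83, 1.89 and 2.36. Gapdh also has processed copies elsewhere in the genome, and how the authors' counting divided reads among such copies was not given in the sources used here.

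Pyruvate is reduced to lactate by lactate dehydrogenase or enters mitochondria. Ldha (ENSMUSG00000063229.15, chromosome 7, 46841475 to 46855627), the subunit that favours lactate formation, was at 246 FPKM for WT, 237 for the library labelled Tle3cKO and 258 for the Tle4cKO library. Its promoter window with the most core matches, 3, is shown above. Ldhb (ENSMUSG00000030246.11, chromosome 6, 142490249 to 142507957), the subunit that favours the return of lactate to pyruvate, was at 2.37, 1.64 and 3.72 FPKM. Tle4cKO was highest and the library labelled Tle3cKO lowest, and the plain ratio between them was 2.27. The log2 ratio was 0.84 between those libraries, 0.49 between Tle4cKO and WT, and -0.35 between the library labelled Tle3cKO and WT. Ldha exceeded Ldhb 104-fold in WT, 144-fold in the library labelled Tle3cKO and 69.3-fold for Tle4cKO, so Ldha held at least 98.6% of the pair in each library. At 1.64 to 3.72 FPKM Ldhb is a low gene, and its counting error is not known.

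Slc16a3 (MCT4), the exporter of lactate from glycolytic cells, was at 134 FPKM for WT, 118 for the library labelled Tle3cKO and 138 for the Tle4cKO library. Pdk1, a HIF-induced kinase that shuts pyruvate dehydrogenase, was at 1.07, 1.22 and 1.29 FPKM. It was a minor form here: Pdk3, from the list of genes for pyruvate entry into mitochondria, was at 21.5, 17.5 and 16.6 FPKM and held 83.3% to 85.4% of the summed FPKM of the 4 PDK genes.

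**Figure D2:**
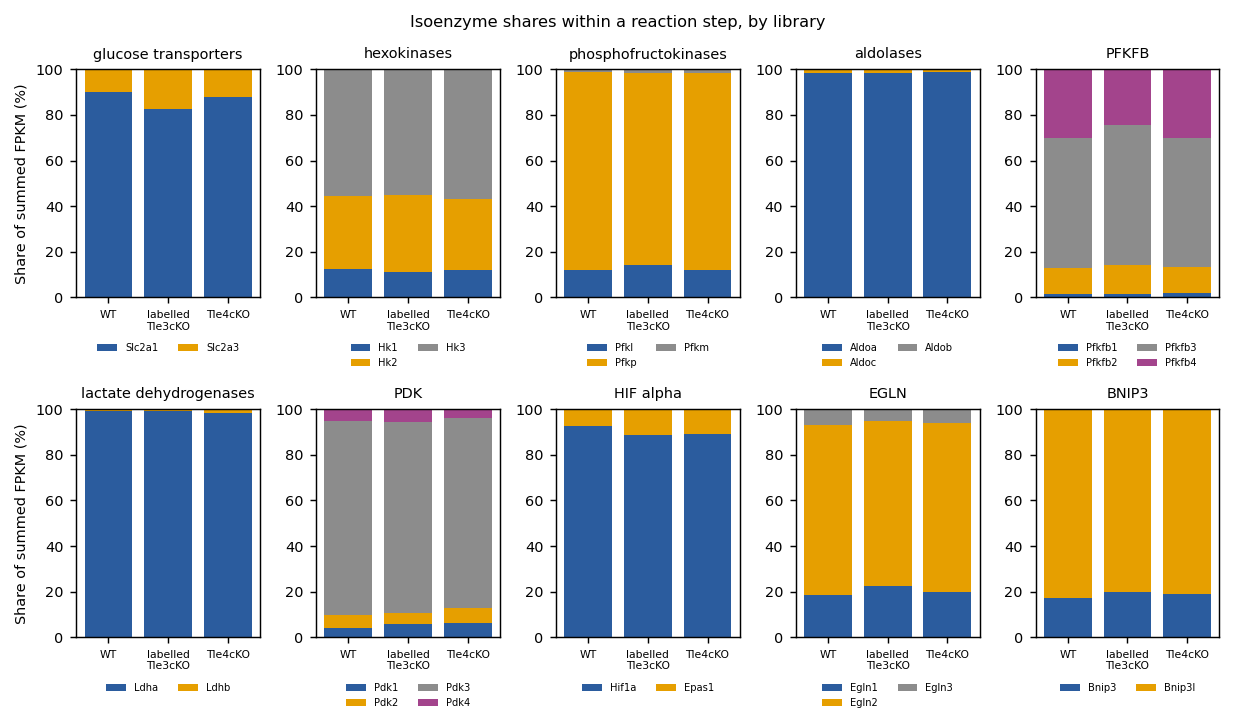
Share of summed FPKM (%) of each isoenzyme within 10 steps, with 1 stacked bar per library. The leading gene of each step is the same in all 3 libraries, and the Slc2a3 share is largest in the library labelled Tle3cKO (17.2%).

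The alpha subunits of HIF differed in level. Hif1a (ENSMUSG00000021109.13, chromosome 12, 73901375 to 73947530), the form that drives glycolytic genes, was at 50.9 FPKM for WT, 47.6 for the library labelled Tle3cKO and 45.3 for the Tle4cKO library. Epas1 (HIF2A, ENSMUSG00000024140.10, chromosome 17, 86753700 to 86833410), the form prominent in endothelium and also present in macrophages, was at 4.07, 6.1 and 5.46 FPKM. On the FPKM as deposited, Hif1a was highest and Epas1 lowest in WT. The log2 ratios to WT were -0.097 for Hif1a and 0.48 for Epas1 in the library labelled Tle3cKO, and -0.17 and 0.35 in Tle4cKO. With totals made equal the first of these was 0.00078, so the order of Hif1a in those libraries rests on the scaling. Hif1a exceeded Epas1 12.5-fold in WT, 7.8-fold in the library labelled Tle3cKO and 8.29-fold for Tle4cKO. These ratios within a library do not depend on the scaling, but both comparisons use the same WT library.

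The oxygen sensors were low to moderate. Egln1 (PHD2), the main HIF prolyl hydroxylase in most cells, was at 8.61 FPKM for WT, 10 for the library labelled Tle3cKO and 9.47 for the Tle4cKO library. Egln3 (PHD3), itself induced by HIF, was at 3.21, 2.3 and 2.85 FPKM, lowest in the library labelled Tle3cKO with a log2 ratio of -0.35 to WT. Egln2, from the list of oxygen-sensing genes, was higher than either, at 34.5, 32.6 and 35.7 FPKM, and held 72.6% to 74.5% of the summed EGLN level.

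Of the 9 hypoxia-induced members, Vegfa was the most abundant. Vegfa (ENSMUSG00000023951.17, chromosome 17, 46016993 to 46032369), the main angiogenic growth factor, was at 189.7 FPKM for WT, 215 for the library labelled Tle3cKO and 207 for the Tle4cKO library. WT was lowest, by log2 differences of 0.18 and 0.13. Mxi1, a MYC antagonist, was at 63, 55.2 and 61.4 FPKM, and Ddit4 (REDD1), an inhibitor of mTORC1, at 54.2, 55.5 and 62.2 FPKM. Thus Mxi1 was lowest in the library labelled Tle3cKO and Ddit4 highest in Tle4cKO. The mitophagy receptor Bnip3l (NIX) was at 23.5, 25.1 and 24.4 FPKM. Its relative Bnip3, whose promoter with 4 core matches is shown above, was at 4.91, 6.26 and 5.74 FPKM, lowest in WT, with log2 ratios to WT of 0.3 and 0.19.

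The genes for protein folding and secretion differed little. Ero1l, an oxidase that forms disulfide bonds in the endoplasmic reticulum, was at 25.9, 24.6 and 25.8 FPKM for WT, the library labelled Tle3cKO and Tle4cKO. P4ha1, a collagen prolyl hydroxylase subunit, was at 21, 18.6 and 18.6 FPKM. Of the 9 hypoxia-induced members, the lowest were Adm, the vasodilator adrenomedullin, at 2.23, 2.03 and 2.59 FPKM, and Ankrd37, a small ankyrin-repeat gene often used as a hypoxia marker, at 1.28, 1.07 and 1.57 FPKM. Both were lowest in the library labelled Tle3cKO and highest in Tle4cKO. Ankrd37 shares 349 exon bases with Lrp2bp and 57 with Ufsp2 on the opposite strand, of 1539 in all, and whether the counting used strand was not given in the sources used here.

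Set against all genes, the members' differences were ordinary in number. Folds are counted here on FPKM + 1, which shrinks those of low genes. Comparing the library labelled Tle3cKO with WT, 1 of the 34 members, Slc2a3, was at least 1.5-fold different, where 2.68% of all genes tested were. In Tle4cKO against WT none was, where 2.91% of all genes were. In Tle4cKO against the library labelled Tle3cKO it was 1 member, Ldhb, where 3.03% of all genes were. In plain FPKM, Ldhb was 2.27-fold higher in Tle4cKO than in the library labelled Tle3cKO. On the FPKM + 1 scale no member was at least 2-fold different in any comparison. Of all genes, 0.423%, 0.648% and 0.729% were, in the same order. With 34 members, shares of this size stand for about 1 gene, so neither the members called nor their absence sets the list apart. With a pseudocount of 5 FPKM no member passed 1.5-fold, and with one of 0.1 FPKM Ldhb also passed in Tle4cKO against WT and Slc2a3 in Tle4cKO against the library labelled Tle3cKO.

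The members' typical difference was also near that of other genes. The median size of their log2 ratio was 0.14 in the library labelled Tle3cKO against WT, 0.12 in Tle4cKO against WT and 0.13 between the libraries of the targeted genotypes, beside 0.12, 0.11 and 0.11 over all genes tested. Among the 13 members at a mean of at least 50 FPKM it was 0.059, 0.072 and 0.13, beside 0.092, 0.082 and 0.095 over the 1642 genes at that level. The middle 95% of all genes held 33 of 34 members in each comparison, with Slc2a3 outside in the first and Ldhb in the other two.

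**Figure D3:**
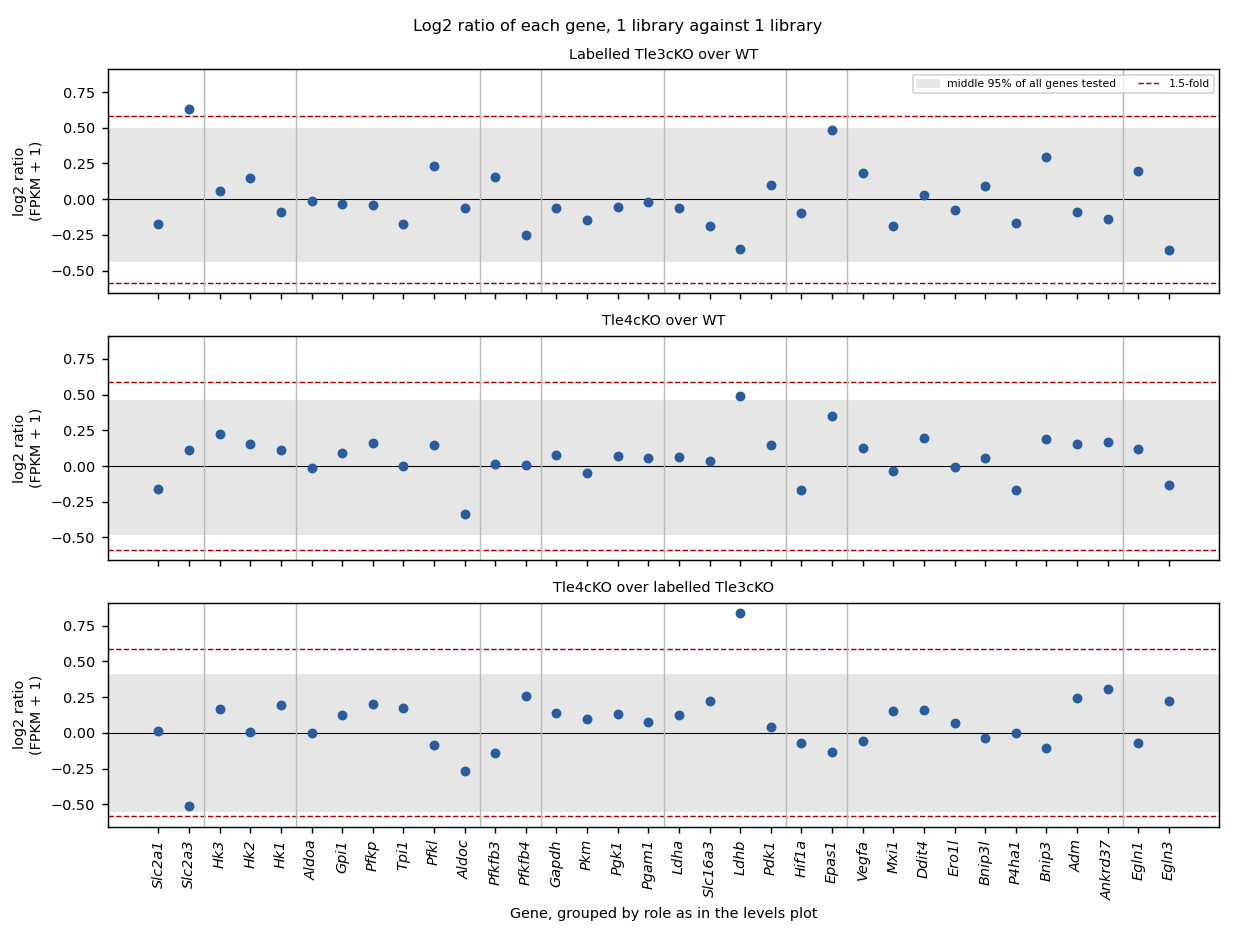
Log2 ratio of FPKM + 1 for the 34 members in each comparison (1 library against 1 library), with the middle 95% of the 11114 genes in grey and 1.5-fold as dashed lines. Slc2a3 lies above the line in the first panel and Ldhb in the third, and 33 members lie in the grey band in each panel.

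The directions leaned one way within comparisons, by small amounts. In the library labelled Tle3cKO 12 members were above WT and 22 below, with a median log2 ratio of -0.058, where the median of all genes was -0.011 and 47.6% were above. With totals made equal the split turned to 23 above and 11 below, with a median of 0.041 beside 0.079 for all genes. In Tle4cKO 24 members were above WT and 10 below, with a median of 0.074 beside -0.0026 for all genes, of which 49.4% were above. Hexokinases (3 of 3) and the lactate and pyruvate genes (4 of 4) were all above WT there, with medians of 0.16 and 0.1, and this held with totals made equal and with scaling by the median ratio. The 2 PFKFB members were also both above WT, by log2 ratios of only 0.011 and 0.015. Groups this small were named because all their genes lay on one side. Against the library labelled Tle3cKO 22 members were higher in Tle4cKO and 12 lower, with a median of 0.085 beside 0.0093. Of all genes, 52.4% were higher there. With totals made equal the split was 19 higher and 15 lower, with a median of 0.016 beside -0.053 for all genes. With scaling by the median ratio it was 20 higher and 14 lower. The lower glycolysis genes were all higher in Tle4cKO (4 of 4, median 0.11), which with totals made equal was still 4 of 4 with a median of 0.042. The lactate and pyruvate genes were too (4 of 4), also with totals made equal. Hexokinases were 3 of 3 higher, and 2 of 3 with totals made equal. Both HIF alpha subunits were lower in Tle4cKO than in the library labelled Tle3cKO.

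By the share past 1.5-fold, other genes of the same pathways were as level. The 9 related lists held 131 genes tested, of which 2 were at least 1.5-fold higher in the library labelled Tle3cKO than in WT and none lower. In Tle4cKO against WT 1 was higher and 2 lower, and against the library labelled Tle3cKO 1 was lower. The shares past 1.5-fold were 1.53%, 2.29% and 0.763%, and the genes they stand for were all from the list of other HIF-induced genes, whose 28 tested members had medians of 0.1, 0.083 and -0.024 in the 3 comparisons. Bhlhe41 (DEC2, ENSMUSG00000030256.11, chromosome 6, 145858243 to 145865558), a repressor of the clock system, was at 3.63 FPKM for WT, 8.57 for the library labelled Tle3cKO and 6.72 for the Tle4cKO library, lowest in WT with log2 ratios of 1.05 and 0.74. Plod2, a collagen lysyl hydroxylase, at 2.09, 3.63 and 3.02 FPKM, and Angptl4, an inhibitor of lipoprotein lipase, at 5.89, 4.34 and 3.38 FPKM, were named after their values were seen.

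Within the other 8 lists no tested gene reached 1.5-fold in any comparison. Transporters were led by Bsg (basigin), which carries MCT1 and MCT4 to the cell surface, at 121, 106 and 108 FPKM for WT, the library labelled Tle3cKO and Tle4cKO. Slc2a6 (GLUT6), named after its values were seen, was at 56.5, 58.1 and 51 FPKM and so above Slc2a1 per length in each library. The pentose phosphate pathway, which draws glucose 6-phosphate off to make NADPH, was led by Taldo1 at 576, 508 and 564 FPKM. Of its 8 tested genes 7 were below WT in the library labelled Tle3cKO (median -0.16) and 6 in Tle4cKO (median -0.04). With totals made equal it was 5 of 8 in each, with medians of -0.062 and -0.01. In the tricarboxylic acid cycle Mdh2 was highest, at 99.1, 92.3 and 95.1 FPKM, and the medians of its 21 tested genes were -0.058 and 0.022 against WT. The first turns to 0.033 with totals made equal. Pyruvate entry into mitochondria was led by Pdhb, a pyruvate dehydrogenase subunit, at 77.1, 72.5 and 83.4 FPKM. Of its 12 tested genes 2 were above WT in the library labelled Tle3cKO, which turned to 8 with totals made equal.

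The remaining lists had medians within 0.13 of 0 in each comparison, on the FPKM as deposited. For glycogen and gluconeogenesis Ugp2, which makes UDP-glucose, had the highest mean, at 22.2, 22.1 and 20.9 FPKM, and the median of the 13 tested genes was 0.13 in the library labelled Tle3cKO against WT. In the list of HIF subunits and oxygen sensing, the chaperone Hsp90ab1 was at 609, 610.4 and 642 FPKM, and the beta subunit Arnt at 26.5, 24 and 26.2. Its 16 tested genes had medians of 0.018 and 0.015 against WT. Of the other glycolytic isoenzymes, Adpgk, an ADP-dependent glucokinase, had the highest mean, at 14.2, 14.5 and 15.3 FPKM, with medians over 9 tested genes of 0.028 and 0.01. Upstream regulators were led by Rheb, the activator of mTORC1, at 110.5, 103 and 100.3 FPKM, and the medians over 19 tested genes were -0.041 and -0.047, of which the first turns to 0.05 with totals made equal.

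The members that differed most were also set beside markers of other cells that a colon sort can hold. Epas1 was lowest in WT and highest in the library labelled Tle3cKO, and so was the summed level of the 10 endothelial markers, at 42.6 FPKM for WT, 51 for the library labelled Tle3cKO and 46.3 for the Tle4cKO library. Of these, 9 were highest in the library labelled Tle3cKO and none was at 0, with the junction gene Cdh5 at 1.31, 2.99 and 2.3 FPKM. The exception was Pecam1, the largest part of the sum, at 24.9, 18.8 and 22.4 FPKM. Pecam1 was highest in WT and lowest in the library labelled Tle3cKO. Slc2a3 had the same order of libraries as Epas1. So had the sum of the 11 fibroblast and smooth muscle markers, at 236, 286 and 269 FPKM with 7 highest in the library labelled Tle3cKO. The order was not particular to markers of other cells. The macrophage marker Mertk had it too, at 4.46, 7.65 and 6.17 FPKM. Of the 12 macrophage markers, 3 were highest in the library labelled Tle3cKO and 6 in WT. Among the members Pfkl, Pfkfb3, Egln1, Vegfa, Bnip3 and Bnip3l had the same order. The part of endothelial, fibroblast and smooth muscle RNA in the values of Epas1 and Slc2a3 was not tested.

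Ldhb was highest in Tle4cKO, as were 12 of the 14 epithelial markers, whose sum was 4.31 FPKM for WT, 9.93 for the library labelled Tle3cKO and 47.8 for the Tle4cKO library. Several of these were at 0 in WT, such as Spink4, or listed at under 1 FPKM outside Tle4cKO, such as Krt8 at 0.15, 0.337 and 4.9 FPKM. The 8 B and plasma cell markers summed to 104, 139 and 285 FPKM, with 5 highest in Tle4cKO. Both sums were lowest in WT, whereas Ldhb was lowest in the library labelled Tle3cKO. Aldoc was lowest in Tle4cKO, as were all 5 tested glial markers, and the 6 glial genes summed to 35.3, 35.3 and 12.5 FPKM, with Gfap at 8.92, 9.34 and 3.82. The part of epithelial, plasma and glial RNA in the values of Ldhb and Aldoc was not tested.

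**Figure D4:**
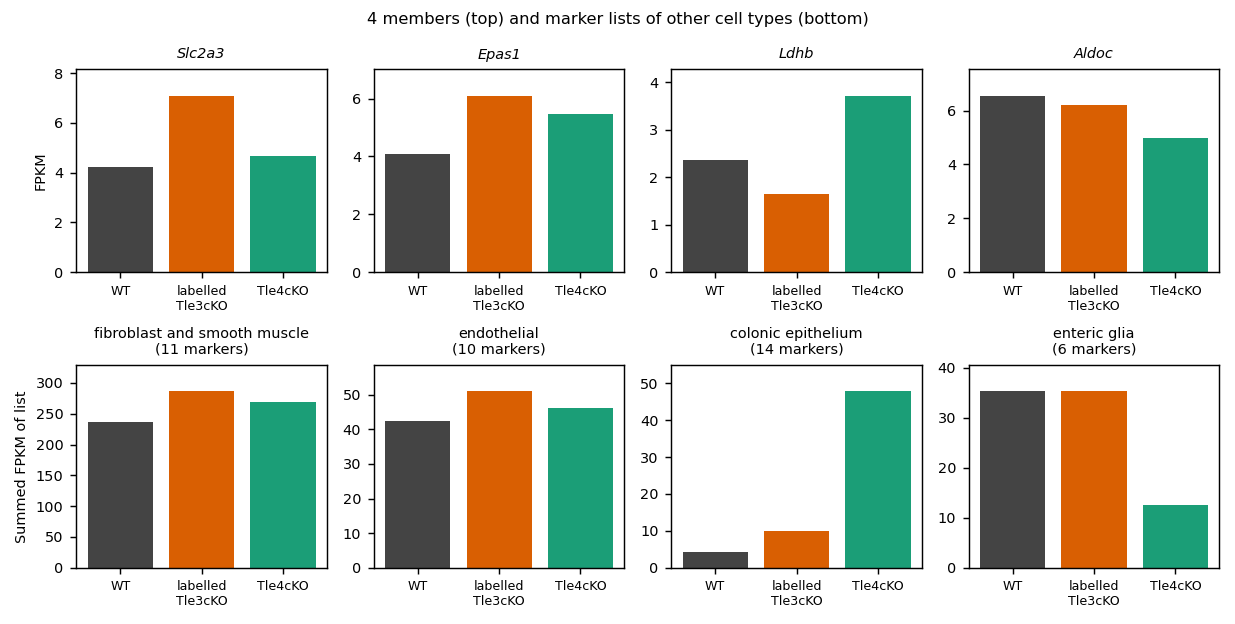
FPKM of Slc2a3, Epas1, Ldhb and Aldoc (top) and summed FPKM of 4 marker lists (bottom), with 1 bar per library. The glial sum is 35.3 FPKM in WT and 12.5 in Tle4cKO, where Aldoc is lowest, and the epithelial sum reaches 47.8 FPKM in Tle4cKO, where Ldhb is highest.

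The sums of the other marker lists were level or low, though single genes in them differed. The 8 neutrophil markers summed to 172 to 176 FPKM, nearly all of it S100a8 and S100a9, which monocytes also express, and Camp was at 0 in every library. Retnlg was at 4.8 FPKM for WT, 4.55 for the library labelled Tle3cKO and 2.05 for the Tle4cKO library. Of the 4 tested neutrophil markers, 2 were above WT in Tle4cKO and 2 below. The 10 T, NK and innate lymphoid markers summed to 353 to 364 FPKM, of which Il7r alone made up 332 to 342, while Cd3e was at 0.401 to 1.7. The 7 erythroid genes summed to 1.48 to 4.55 FPKM, with Slc4a1 at 0 in each library. The 6 markers of cells that the sort excludes summed to 9.46 to 13.2 FPKM, mostly Ly6c2 at 5.98 to 9.38, and the eosinophil gene Epx was at 0. The 12 macrophage markers summed to 5565 to 6178 FPKM.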

How the data were processed

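RNA was measured in sorted colonic macrophages pooled by genotype, and groups were taken from the sample titles. The authors deposited FPKM per gene, per the file headers. The submitters' processing notes name TopHat2 2.1.0, Cufflinks 2.2.1 and the build mm10, with no roles given. FPKM scales to the library's mapped fragments, so a few abundant genes can shift all others, and reads of near-identical copies are divided by estimation. No count model was used. A pseudocount of 1 FPKM was added before log2 ratios were taken, over 11114 genes at a mean of at least 1 FPKM, and genes at 1.5-fold or 2-fold were counted. No test was possible from 1 library per genotype. Of the 34 members, 13 share exon bases with another gene in GENCODE release M21, which also gave identifiers and coordinates.

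The members and lists were chosen with earlier results of these data known. Named genes were all members, Tle3 and Tle4, and from each related list up to 4 genes with the largest ratio past 1.5-fold at a mean of at least 5 FPKM, or else the highest; Arnt, Egln2, Pdk3, Slc2a6, Plod2 and Angptl4 were added after their values were seen, and some genes that the rule takes are left unnamed. The steps were tested on simulated data with seeded changes well above 1.5-fold and the same noise for all genes. That does not bear on differences near 1.5-fold or on the counting error of low genes. Python 3.11.15, numpy 2.4.6, pandas 2.3.3 and matplotlib 3.10.9 were used.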

Additional observations from a re-analysis of the deposited data

How the results depend on the processing

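With no replicates, a median was counted as moved when it changed by 0.005 or more. For the library labelled Tle3cKO against WT the median log2 ratio of the members was -0.058; it was -0.040 with a pseudocount of 5 FPKM and with a filter at 5 FPKM, -0.035 with scaling by the median ratio, and 0.041 with totals made equal, which turns its direction. For Tle4cKO against WT it was 0.074, and 0.063 with the same pseudocount and with the same filter and 0.104 with equal totals. For Tle4cKO against the library labelled Tle3cKO it was 0.085, and 0.066 with the filter at 5 FPKM, 0.064 with the median ratio, 0.016 with equal totals and 0.094 with the joined row of Eno1 and Eno1b added, an alternative chosen after seeing the data. Members at least 1.5-fold different numbered 1, 0 and 1 in these comparisons. With a pseudocount of 5 FPKM the count was 0 in each, with one of 0.1 FPKM it was 1, 1 and 2, and with the filter at 5 FPKM, which leaves out Ldhb, it was 0 in the last. Leaving out Pfkfb1, which is under 1 FPKM, gave Pfkfb3 shares of 57.7% for WT, 62.7% for the library labelled Tle3cKO and 57.7% for the Tle4cKO library. No paired analysis was possible because each group has 1 library. The fragments behind each value are unknown, so the counting error of low members such as Ldhb, Pdk1, Ankrd37 and Adm is unknown, and the library labelled Tle3cKO carries the doubt that its Tle3 value raises.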
